A study of Mus musculus with 32 samples.

Results

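The genes described here encode contact and guidance signals: Eph receptors and their ephrin ligands, and semaphorins with their plexin and neuropilin receptors. They were taken by gene symbol from the deposited tables, and 53 of the 39399 genes listed for both mouse strains were members: 14 Eph receptors, 8 ephrins, 20 semaphorins, 9 plexins and 2 neuropilins. Ephrins are membrane-bound ligands, tethered by a lipid anchor (A class) or a transmembrane segment (B class), and they signal in both directions when they meet Eph receptor tyrosine kinases on a neighbouring cell. Semaphorins are secreted (class 3) or membrane-bound (classes 4 to 7) and act through plexins, whose cytoplasmic domain turns off small GTPases of the Ras and Rap families. Neuropilins are the ligand-binding co-receptors for most class 3 semaphorins. In the cochlea these families are known for guiding spiral ganglion axons and for shaping boundaries between cell types during development.

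The libraries came from cochleae of 10-week-old PrestinCre/+;RiboTagHA/+ and Sox2Cre/+;RiboTagHA/+ mice, which the series describes as CreERT2 drivers with a CBA contribution. Animals received no noise (control) or 2 h of noise at 105 dB SPL and were sampled 6 h or 24 h later. All groups, controls included, carried the RiboTag allele, which puts an HA tag on a ribosomal protein in cells with Cre activity. Each homogenate gave a whole-cochlea RNA sample (input) and an HA immunoprecipitate (IP), called here the outer hair cell IP for the Prestin driver and the supporting cell IP for the Sox2 driver. The Prestin groups held 3 libraries each. For Sox2, the control and 6 h groups held 2 libraries and the 24 h groups 3, which makes 32 libraries in 12 groups. Whether a homogenate pooled animals is not given in the sources used here.

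Values are TPM, a gene's length-scaled share of all transcripts in a library, so levels can be compared between genes. Read depth cannot be recovered from them. Between 15929 and 21239 genes were above 0 per library, and the Sox2 libraries at 6 h held the fewest. The labels were checked against marker genes. Ocm, an outer hair cell calcium-binding protein, ranged from 381 to 1809 TPM in the outer hair cell IP and from 49.1 to 78.7 TPM in its input. Slc26a5 (prestin) was low throughout, at 6.26 to 25.4 TPM in the outer hair cell IP. Sox2 ranged from 259 to 654 TPM in the supporting cell IP and from 32.5 to 63.7 TPM in its input. Summed markers of Schwann cells and satellite glia, which also express Sox2, reached 3222 to 8997 TPM in the supporting cell IP. Its input held 901 to 1315 TPM, so glial transcripts were enriched there too. The same sums were 1428 to 2446 TPM in the outer hair cell IP and 730 to 1323 TPM in its input. Endothelial sums in that IP (338 to 528 TPM against 224 to 348 TPM in input) were higher too. So were pericyte and smooth muscle sums (118 to 199 TPM against 68.6 to 87.2 TPM). In all of these bulk samples, fewer cells of a type and less RNA per cell cannot be told apart.

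The promoters of Epha2 and Plxnb3 are shown first, because Epha2 rose at 6 h in every sample type and Plxnb3 had the lowest estimate after noise among members of the outer hair cell IP. Of the 53 members, 47 had a promoter entry in RefSeq (GRCm38.p6), defined as 250 bases before to 50 bases after a transcript start. The windows were searched on both strands for the AP-1 motif TGANTCA, the cyclic AMP response element (CRE) TGACGTCA and the E-box CANNTG, none of which is fully contained in another. The stretches printed run from 250 to 21 bases before the start, with the motif in capitals: the CRE for Epha2 (plus strand, chr4:141300971-141301200) and E-boxes for Plxnb3 (plus strand, chrX:73756853-73757082).
Epha2: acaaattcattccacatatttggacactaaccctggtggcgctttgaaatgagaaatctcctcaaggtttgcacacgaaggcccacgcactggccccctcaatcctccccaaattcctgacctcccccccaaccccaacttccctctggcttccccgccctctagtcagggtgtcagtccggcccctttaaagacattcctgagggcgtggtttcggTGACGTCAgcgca
Plxnb3: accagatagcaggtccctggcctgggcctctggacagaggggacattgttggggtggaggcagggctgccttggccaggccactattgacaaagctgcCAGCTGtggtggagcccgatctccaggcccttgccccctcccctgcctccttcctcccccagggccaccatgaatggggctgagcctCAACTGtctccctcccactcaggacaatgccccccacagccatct

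The CRE lay 33 to 26 bases before the Epha2 start. Epha2 was the single member of the 47 with a CRE in its window, a motif found for 2.03% of all 27025 genes with an entry, so 1 member is near the background. The AP-1 motif was found for 3 members, Sema4c, Sema4d and Sema6b, and for 8.97% of all genes. An E-box was found for 28 members and for 75.0% of all genes. Counted over all 32851 windows, the shares were 1.79%, 7.81% and 72.3%. Plxnb3 had 3 E-boxes in its whole window, 2 of them in the stretch printed, while neither of the 2 windows of Efna1 held any of the 3 motifs. These matches describe letters in a window and do not show that a factor binds there.

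Most of the families were well represented in the cochlea. In the outer hair cell IP 28 of the 53 members had a mean of at least 10 TPM over the 9 libraries, 15 had a mean between 1 and 10 TPM and 10 had a mean under 1 TPM. The supporting cell IP was similar, with 27, 17 and 9 members in those classes. In the 16 inputs the counts were 12, 24 and 17. Epha6, a receptor of the A class, never exceeded 0.0684 TPM, and Sema3a, a secreted axon repellent, never exceeded 0.457 TPM. Sema5b, Sema3c, Ephb1 and Epha3 also stayed under 1 TPM in every library.

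**Figure D1:**
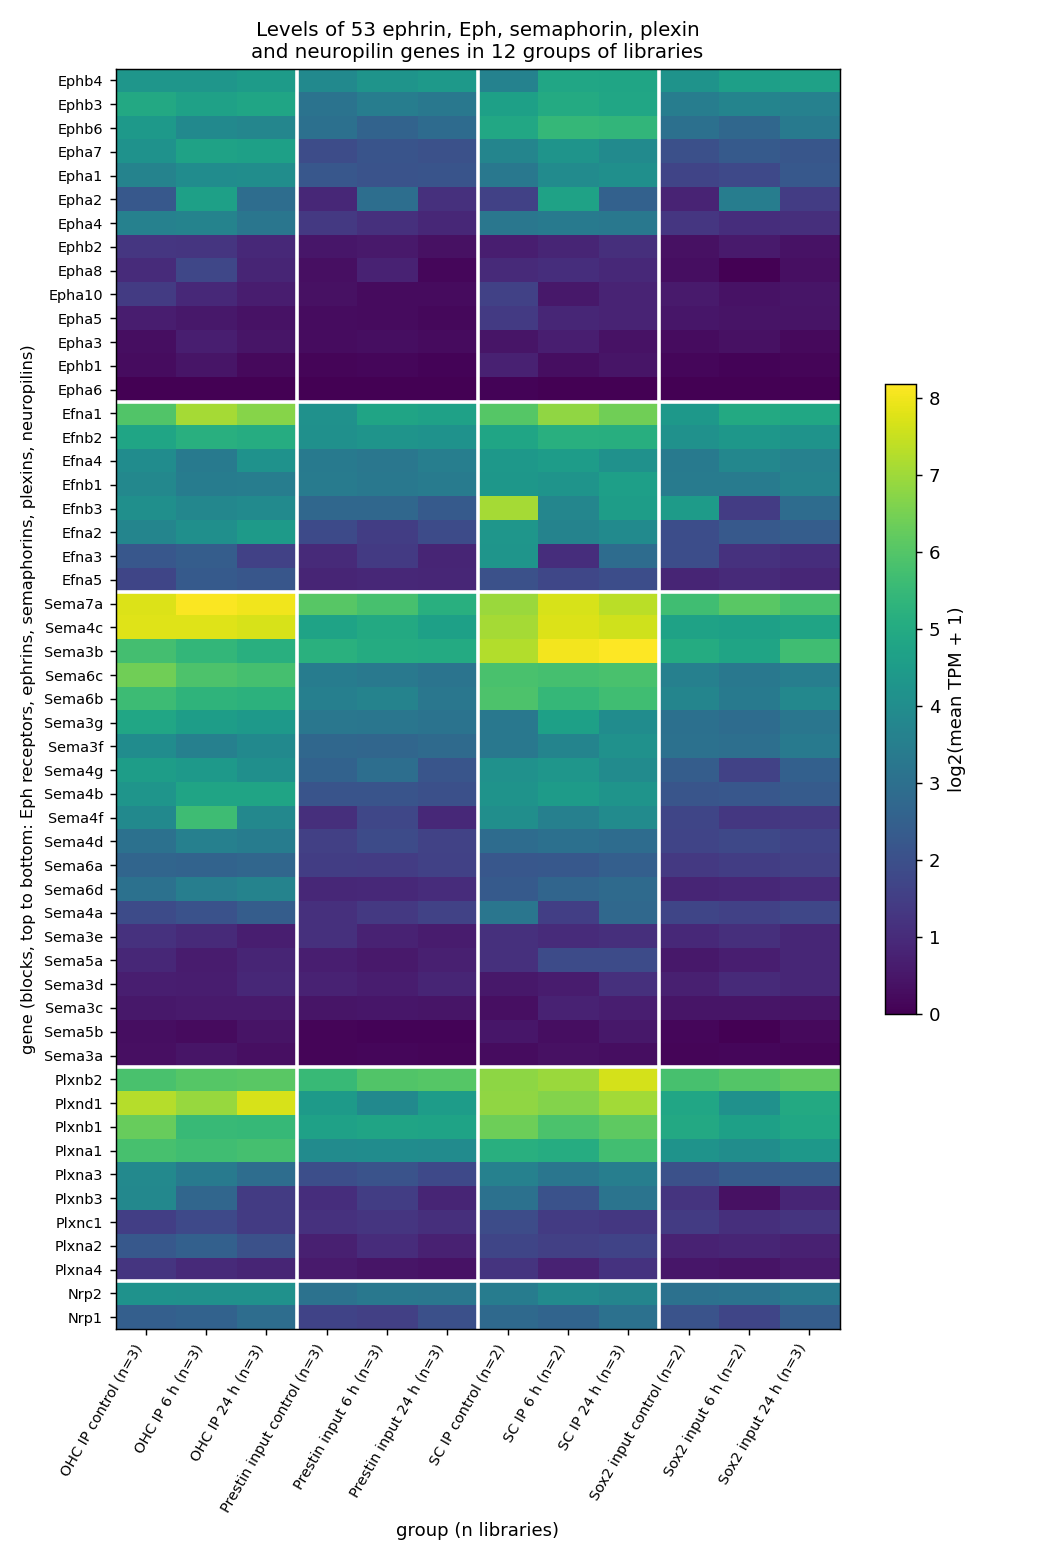
Mean level of each of the 53 members (rows, in blocks by family) in the 12 groups (columns, with their number of libraries), as log2(mean TPM + 1). The IP columns are brighter than the input columns for most rows; Epha2 brightens at 6 h in all 4 sample types, and Plxnb3 darkens over 6 h and 24 h in the outer hair cell IP.

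Among the ligands, Efna1, an A-class ephrin first described as an immediate early gene of endothelial cells, was the most abundant ephrin in every sample type. Its mean was 99.5 ± 38.0 TPM (SD, n = 9) in the outer hair cell IP, 86.8 ± 21.2 TPM (SD, n = 7) in the supporting cell IP and 24.3 ± 6.12 TPM (SD, n = 16) in the inputs. Efnb2, a transmembrane ephrin known from arteries, ranked next under the Prestin driver, at 31.4 ± 5.88 TPM, and in the inputs, at 17.5 ± 1.49 TPM. Under the Sox2 driver the next ephrin was Efnb3, but its values ran from 1.05 to 144 TPM, so that its rank there rests on 2 control libraries. The A-class genes Efna1, Efna3 and Efna4 are neighbours on the minus strand of chromosome 3 (Efna1 at chr3:89271733-89281142, Efna3 at chr3:89313899-89322965, Efna4 at chr3:89333390-89338028 in GENCODE M21, GRCm38). Their levels differed all the same. Efna3 averaged 3.35 TPM in the outer hair cell IP where Efna4 averaged 13.7 TPM. An antisense gene overlaps 14.1% of the exonic bases of Efna3 and another 10.5% of those of Efna4, and whether strand was used in counting is not given. The same holds for 10.7% of Plxna1 and 7.27% of Sema4c.

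The semaphorins included the most abundant members of all. Sema7a, a lipid-anchored semaphorin that also binds integrins, averaged 252 ± 63.5 TPM in the outer hair cell IP and 54.2 ± 13.6 TPM in the inputs. Sema4c, a transmembrane ligand of plexin B2, averaged 215 ± 23.2 TPM in the outer hair cell IP and 184 ± 47.3 TPM in the supporting cell IP. Sema3b, a secreted ligand of neuropilins, led in the supporting cell IP at 243 ± 113 TPM and reached 35.2 ± 9.09 TPM in the inputs. In that IP the values of Sema3b (70.7 to 444 TPM) spanned those of Sema4c (129 to 252 TPM). Sema7a and Sema3b also led the semaphorins of the inputs.

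Among the receptors, Plxnd1, a plexin with a known role in vessels, averaged 159.7 ± 50.6 TPM in the outer hair cell IP and 118 ± 22.8 TPM in the supporting cell IP. Plxnb2 averaged 63.1 ± 9.03 TPM in the outer hair cell IP, 153 ± 49.5 TPM in the supporting cell IP and 60.3 ± 9.79 TPM in the inputs, where it ranked first among all members. Plxnb1, a receptor of Sema4d, was the second plexin of the inputs at 26.5 ± 3.35 TPM. Of the Eph receptors, Ephb3 led in the outer hair cell IP at 27.1 ± 5.87 TPM, followed by Epha7 at 22.2 ± 6.45 TPM. On the Sox2 side Ephb6, a receptor without kinase activity, led at 38.0 TPM (23.1 to 58.9 TPM) and Ephb3 followed at 27.9 ± 4.35 TPM. Ephb4, the venous receptor for Efnb2, led in the inputs at 19.5 ± 4.22 TPM. The neuropilin Nrp2 was above Nrp1 in every sample type, with 16.8 ± 2.11 against 5.41 ± 1.22 TPM in the outer hair cell IP.

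The first comparison asked which members were enriched on tagged ribosomes relative to the whole cochlea. Differences are given on the log2(TPM + 1) scale with their standard error (SE), from limma fitted across all genes with Benjamini-Hochberg adjustment, and a gene was called at an adjusted p under 0.05. Relative to input, 39 of 44 tested members of the outer hair cell IP were higher and 0 were lower, including 9 of 10 Eph receptors, 6 of 8 ephrins, 14 of 15 semaphorins, 8 of 9 plexins and both neuropilins. Of the 39, Efna5, Epha8, Epha10, Ephb2, Plxna2 and Plxna4 passed the filter of 1 TPM only with the help of their IP values. Their direction was thus partly set by the filter, which was the same for all genes. Among all 17363 genes tested, 68.5% were called higher and 7.68% lower, so a large share of the transcriptome moved the same way. The median difference was 1.33 for the members tested and 0.82 for all genes. TPM values are shares of a library, and this shift of all genes shrank to 0.07 with median-of-ratios scaling. Under it 26 members were called higher and 7 lower and the members' median was 0.45. The share of all genes called under that scaling is not given here, so these counts have no background beside them. Under that scaling 6 of the 39 changed sign, with Sema3b (-0.69) and Plxnc1 (-0.27) called lower and Efnb2, Nrp2, Plxnb1 and Sema4a not called. The 5 members not called as deposited were Sema3e, Ephb4, Plxnb2, Efnb1 and Efna4.

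By estimate, the 10 highest enrichments in the outer hair cell IP were those of Sema4f, Plxnd1, Sema4c, Sema6c, Sema4b, Epha7 (2.42 ± 0.17), Sema6d (2.37 ± 0.18), Epha4 (2.29 ± 0.19), Efna2 (2.28 ± 0.22) and Sema7a (2.24 ± 0.18). Sema4c was 2.96 ± 0.09 higher (adjusted p = 3.85e-12), and its 9 IP values (171 to 246 TPM) lay far above its 9 input values (20.5 to 33.7 TPM). Sema6c, a transmembrane semaphorin, was 2.74 ± 0.08 higher, with IP values of 48.9 to 92.0 TPM and input values of 6.74 to 10.7 TPM. Plxnd1 was 2.96 ± 0.15 higher, with 76.0 to 216 TPM in the IP and at most 24.5 TPM in the input. None of these ranges overlapped. Sema4b was higher by 2.5 ± 0.11, Sema6b 1.93 ± 0.09, Plxna1 1.78 ± 0.08, Sema4d 1.67 ± 0.09 and Plxna2 1.41 ± 0.09. These 8, the members with the smallest p, under every alternative setting remained higher with an adjusted p of at most 0.00182. Sema4f had the highest estimate, 3.0 ± 0.38, but 1 library at 6 h held 115 TPM where the other 2 held 15.6 and 15.8 TPM. The IP was above its own input in all 9 homogenates for 36 of the 44 tested members. The same count was not made over all genes, so it has no background here.

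Among members of the supporting cell IP 41 of 46 tested members were higher than in input and 0 were lower, against 55.2% higher and 2.72% lower among all 18560 genes. Of the 41, Efna5, Epha5, Ephb2, Plxna2, Plxna4 and Sema5a passed the filter only with the help of their IP values. The median was 1.18 for the members tested and 0.65 for all genes, and median-of-ratios scaling left 22 members higher and 4 lower with medians of 0.42 and 0.03. Here 4 of the 41 changed sign, with Nrp2 (-0.32) called lower and Efna4, Efnb2 and Sema3f not called. Sema4c was again far above input (2.78 ± 0.15, adjusted p = 2.57e-07), with 129 to 252 TPM in the IP and 19.5 to 31.4 TPM in the input. Plxnd1 was 2.20 ± 0.13 higher, Sema4b 2.09 ± 0.10, Sema6b 2.01 ± 0.14, Epha7 1.80 ± 0.11, Sema6d 1.67 ± 0.11, Sema7a 1.48 ± 0.10 and Plxna1 1.12 ± 0.08. Sema3b was 2.55 ± 0.28 higher, from 23.0 to 60.7 TPM in the input to 70.7 to 444 TPM in the IP, the lowest of which was a control library. The members not called were Sema3d, Ephb4, Sema3e, Plxnc1 and Epha8. Ephb4 lay near its input under both drivers, by 0.14 ± 0.13 (Prestin) and -0.07 ± 0.11 (Sox2), and was called lower under both with median-of-ratios scaling (-0.87 and -0.94). With the control libraries alone, 26 members were called in this comparison. The shares of all genes called in that subset and under the scaling are not given here.

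The enrichments were then compared between drivers, as the difference of the outer hair cell enrichment minus the supporting cell enrichment. Of 47 tested members 8 were called higher and 5 lower, against 14% and 7.62% among all 19648 genes. The members toward supporting cells were Sema3b, Plxnb2, Ephb6, Sema5a and Efnb1. Plxnb2 ranged from 109.7 to 237 TPM in the supporting cell IP against 51.8 to 73.3 TPM in its input, while in the outer hair cell IP (43.6 to 71.3 TPM) it overlapped its input (42.4 to 68.1 TPM). The difference was -0.98 ± 0.12 (adjusted p = 5.56e-06). Sema3b in the outer hair cell IP, at 32.7 to 68.0 TPM, lay close to its input at 28.9 to 39.2 TPM, and its enrichments differed by -2.20 ± 0.28 (adjusted p = 9.68e-06). Ephb6 differed by -1.01 ± 0.23, Sema5a, a semaphorin with thrombospondin repeats, by -0.75 ± 0.18 and the ephrin Efnb1 by -0.67 ± 0.18. Sema5a was at most 1.13 TPM in the Prestin libraries and 0.812 to 4.34 TPM in the supporting cell IP. It entered this test only through its Sox2 libraries, so its direction was partly set by the filter on low values. The glial marker sums given above were higher than input in both IPs, and the part of glia in these 5 differences was not tested.

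**Figure D2:**
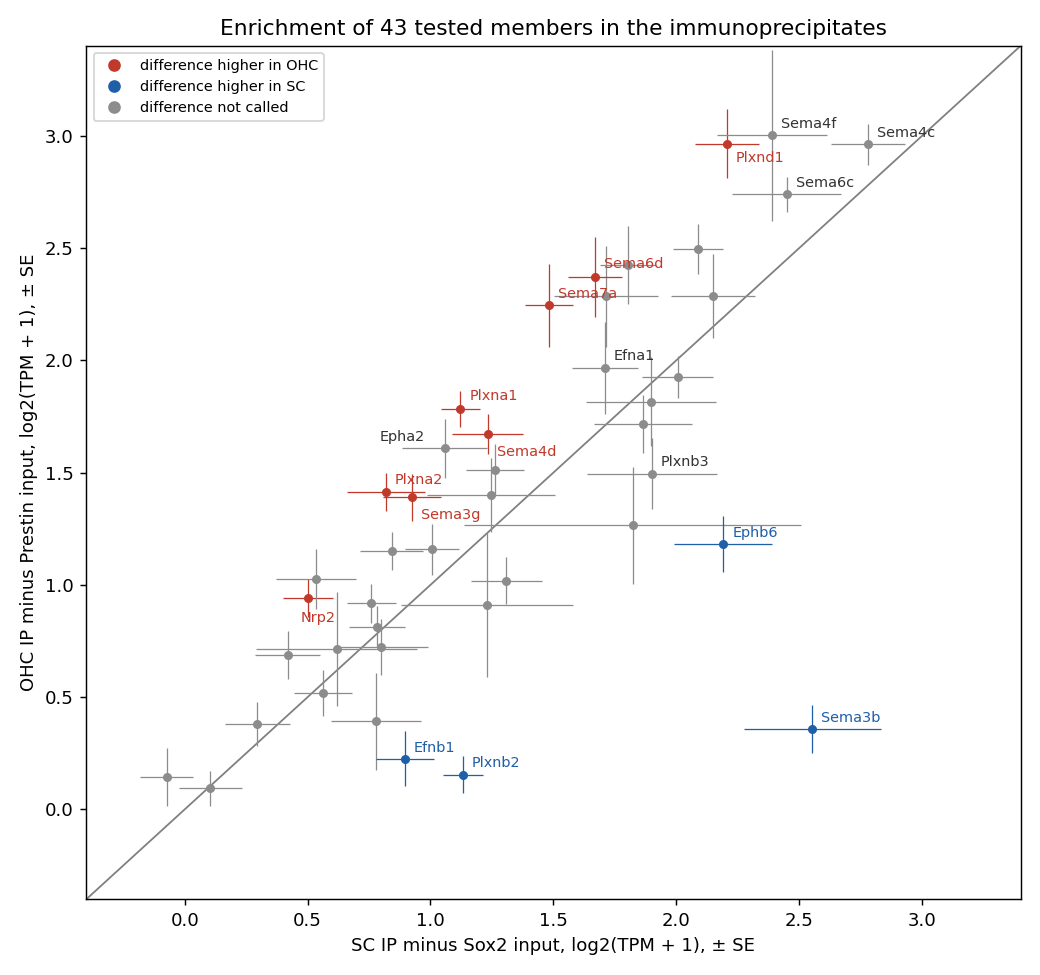
Enrichment of the 43 members tested in both drivers: IP minus input on the log2(TPM + 1) scale, with SE, for the supporting cell IP (x axis) and the outer hair cell IP (y axis), with the line of equal enrichment. Plxnb2, Sema3b, Ephb6 and Efnb1 lie below the line and Plxnd1, Plxna1, Plxna2, Sema6d, Sema7a, Sema4d, Sema3g and Nrp2 above it; Sema5a was not tested in the outer hair cell comparison and is not drawn.

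Toward outer hair cells the called members were Plxna1, Plxna2, Plxnd1, Nrp2, Sema7a, Sema6d, Sema3g and Sema4d. Plxna1 and Plxna2 pair with neuropilins as receptors of class 3 semaphorins, and their enrichments differed by 0.66 ± 0.11 and 0.60 ± 0.15. Plxnd1 differed by 0.76 ± 0.22 and Nrp2 by 0.44 ± 0.13. Sema7a differed by 0.76 ± 0.24, Sema6d by 0.70 ± 0.23 and Sema4d by 0.44 ± 0.16. Sema3g differed by 0.47 ± 0.16 (adjusted p = 0.0365), a call that was lost when each IP was paired with its own input (adjusted p = 0.0724). These differences were smaller than those toward supporting cells for Sema3b and Plxnb2. The median difference of all genes was 0.19. Median-of-ratios scaling kept 9 of the 13 calls, and those lost were among Nrp2, Sema7a, Sema6d, Sema3g and Sema4d. With the control libraries alone, 1 of the 13 members remained called, Sema3g. Control 1 of the outer hair cell IP held the highest outer hair cell marker sum, 2225 TPM against 824 and 1243 TPM. There Sema7a was 92.3 TPM against 257 and 297 TPM in the other controls, and Plxnd1 76.0 against 197 and 186 TPM. Plxna1, Plxna2, Nrp2, Sema6d and Sema4d were also lowest in that control, and Sema3g was highest. The part of outer hair cells, glia or vessels in these differences was not tested.

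Epha2 stood out in the noise response. It encodes a receptor for A-class ephrins that is known from epithelia and is located at chr4:141301240-141329384. Its values in the outer hair cell IP were 3.46, 2.78 and 5.12 TPM without noise, 28.9, 23.3 and 20.5 TPM at 6 h, and 8.12, 5.53 and 6.05 TPM at 24 h. In the Prestin input the values were 1.11, 0.935 and 0.551 TPM without noise, 8.83, 5.77 and 5.82 TPM at 6 h, and 1.41, 1.52 and 0.714 TPM at 24 h. Every 6 h library was above all control and 24 h libraries of their sample type, in these samples and in those of the Sox2 strain. The supporting cell IP held 2.03 and 1.93 TPM without noise, 21.4 and 29.3 TPM at 6 h and 3.92, 5.10 and 5.60 TPM at 24 h. The Sox2 input held 0.644 and 0.916 TPM without noise, 6.65 and 13.4 TPM at 6 h and 1.15, 2.22 and 1.83 TPM at 24 h.

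The rise of Epha2 at 6 h passed the test in each sample type. In the inputs of both strains together it was 2.26 ± 0.20 on the log2(TPM + 1) scale (adjusted p = 1.1e-05), with means of 0.832 TPM in the 5 controls and 8.09 TPM in the 5 libraries at 6 h, a 9.73-fold ratio. Within the outer hair cell IP it was 2.41 ± 0.24 (adjusted p = 0.00658), a 6.40-fold ratio of mean TPM from 3.79 ± 1.2 to 24.2 ± 4.30 TPM (SD, n = 3 each). Within the supporting cell IP it was 3.13 ± 0.28 (adjusted p = 0.0198), a 12.8-fold ratio from 1.98 ± 0.0737 to 25.4 ± 5.62 TPM (SD, n = 2 each). This last call was lost without any 1 of 5 libraries: controls 1 and 4, 6 h replicate 4 and 24 h replicates 1 and 2. The estimate stayed between 2.91 and 3.60 over all alternatives. The calls in the inputs and in the outer hair cell IP were kept under every alternative.

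At 24 h Epha2 had come down. From 6 h to 24 h it fell by 1.87 ± 0.19 in the inputs (adjusted p = 2.3e-05) and at 24 h it differed from control by 0.39 ± 0.19 (adjusted p = 0.35). In the supporting cell IP it fell by 2.16 ± 0.26 (adjusted p = 0.0484), a call lost without any single library of that IP, with an adjusted p of up to 0.611 over the alternatives. Under the Prestin driver the same difference was -1.74 ± 0.24 (adjusted p = 0.0683). Both IPs at 24 h still lay above their controls with no overlap, by 0.67 ± 0.24 and 0.97 ± 0.26. Neither passed the test (adjusted p = 0.126 and 0.271). Such separation from control without a call was common among members. At 24 h it held for 19 of 44 tested members in the outer hair cell IP and 21 of 46 in the supporting cell IP. At 6 h it held for 7 and 25. The share over all genes was not counted. The 6 h and 24 h comparisons share their control libraries.

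The rise was not shown to differ between sample types. The outer hair cell IP rose at 6 h by 0.36 ± 0.32 more than its input (adjusted p = 0.568) and the supporting cell IP by 0.56 ± 0.45 more than its input (adjusted p = 0.69). The outer hair cell response minus the supporting cell response was -0.72 ± 0.36 (adjusted p = 0.365). With 2 or 3 libraries a group these intervals are wide, and a p that misses the threshold does not show that the responses were alike. Among the other Eph receptors the highest estimate against control, in any of the 3 sample types, was that of Ephb4 in the supporting cell IP (1.24 ± 0.25 at 6 h, not called).

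**Figure D3:**
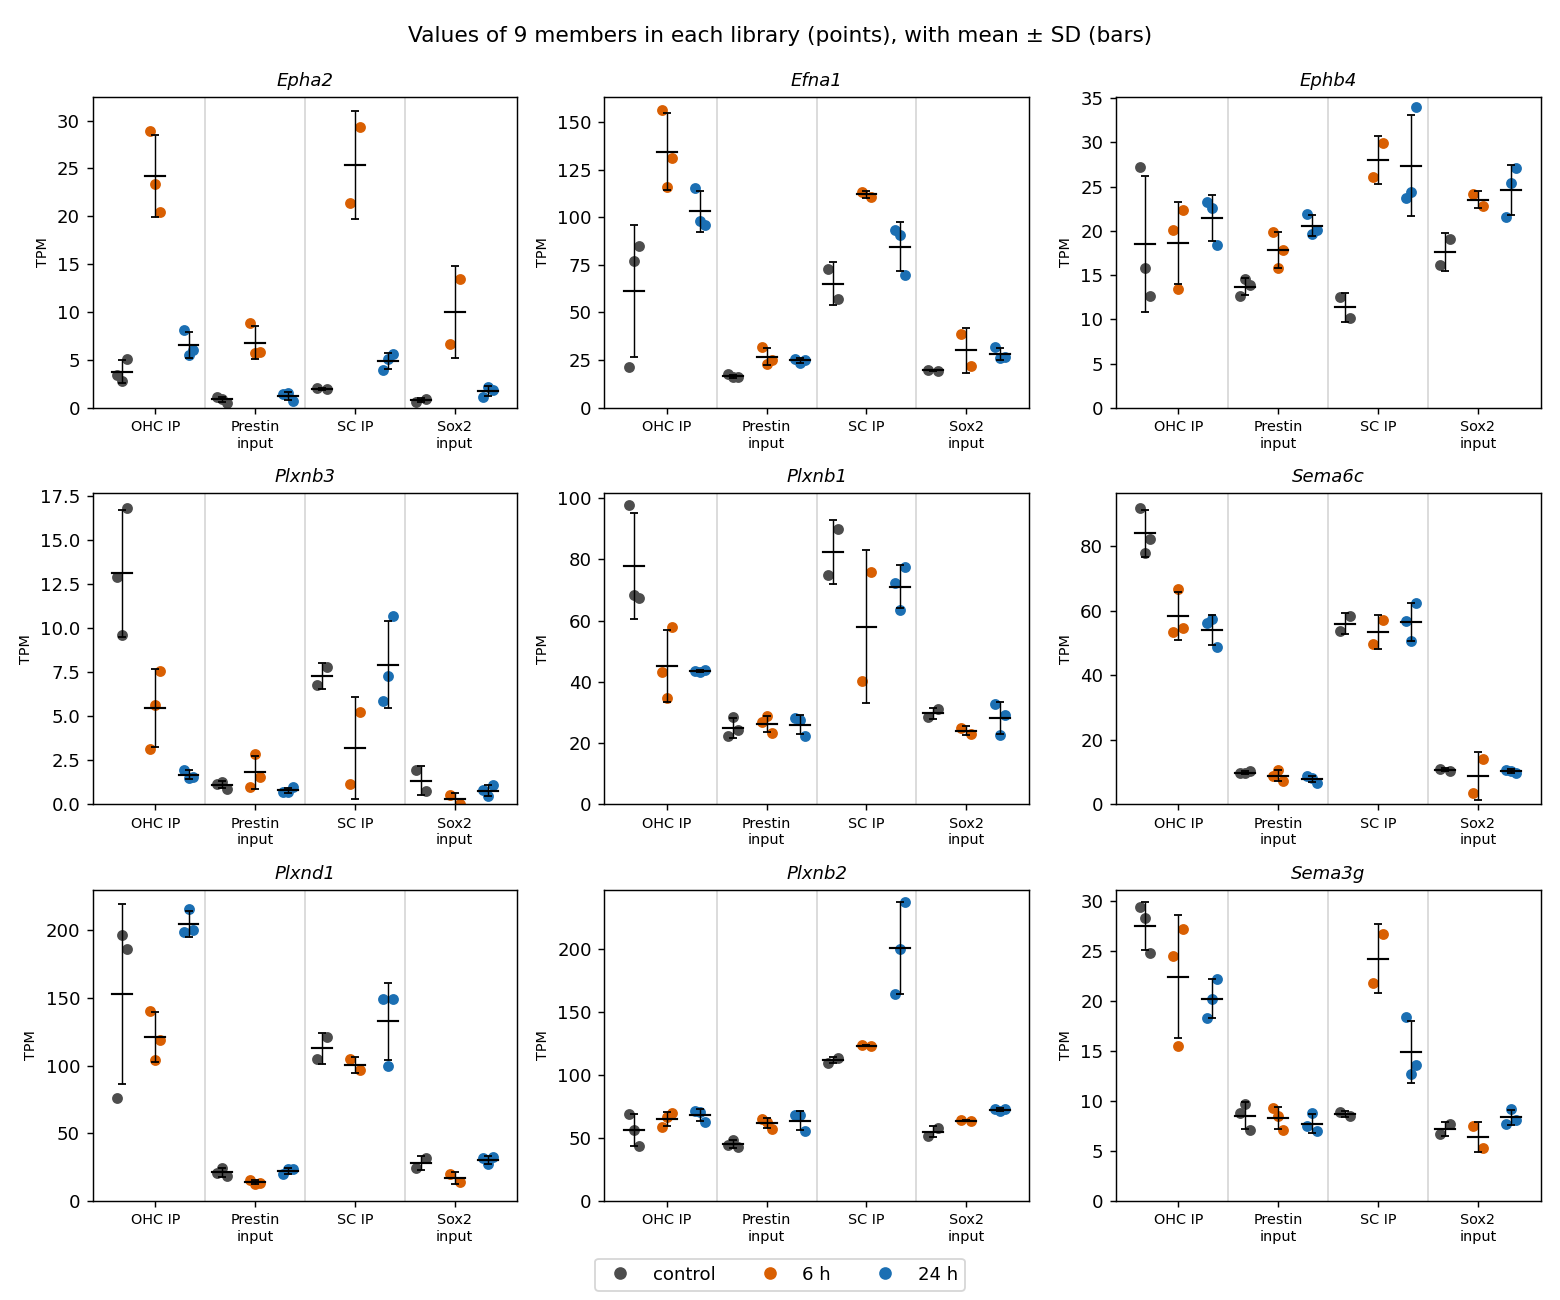
TPM of 9 members in every library, by sample type (x axis) and condition (colour), with mean and SD; each panel has its own y axis from 0. Epha2 peaks at 6 h in all 4 sample types, Plxnb3 declines in the outer hair cell IP to 1.49 to 1.96 TPM at 24 h, and 1 outer hair cell IP control library is low for Efna1 and Plxnd1.

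In the inputs, which represent the whole cochlea, 4 of 38 tested members were called higher at 6 h and 1 lower, against 3.83% higher and 4.71% lower of all 14204 genes. At 24 h 4 were higher and 0 lower, against 3.78% and 0.662%. The members that rose at 6 h were Epha2, its ligand Efna1, Ephb4 and Plxnb2, and Plxnd1 fell. At 24 h Efna1, Ephb4 and Plxnb2 were still above control and Nrp1 joined them. From 6 h to 24 h, 3 members were higher (Nrp1, Plxnd1 and Sema3f) and 1 lower (Epha2), against 12.6% and 3.48% of all genes. The Prestin inputs alone called 4 members at 6 h, 5 at 24 h and 3 between the times. The Sox2 inputs alone called 1, 0 and 2. Shares of all genes called in these subsets are not given here.

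Efna1 in the Prestin inputs was 17.6, 16 and 16 TPM without noise, 31.7, 23.2 and 25.3 TPM at 6 h and 25.8, 23.5 and 25.3 TPM at 24 h. In the Sox2 inputs it was 19.7 and 19.5 TPM without noise, 38.6 and 21.8 TPM at 6 h and 31.7, 26.1 and 26.5 TPM at 24 h. Every noise library was above every control library. The difference was 0.61 ± 0.12 at 6 h (adjusted p = 0.00773) and 0.53 ± 0.12 at 24 h (adjusted p = 0.0185), with 0.65 and 0.56 in the Prestin inputs alone and 0.54 and 0.49 in the Sox2 inputs alone. The 24 h call was lost in 3 of 23 alternatives, among them without Prestin control 3. Under the Prestin driver the IP values of this ephrin went from 21.6, 77.0 and 84.8 TPM to 156, 116 and 131 TPM at 6 h, without overlap, but the low control library widened the spread (1.33 ± 0.46, adjusted p = 0.12). Under the Sox2 driver they went from 73.0 and 57.1 to 113 and 111 TPM (0.78 ± 0.21, adjusted p = 0.144).

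Ephb4 in the Prestin inputs was 12.6, 14.6 and 13.8 TPM without noise, 19.8, 15.8 and 17.8 TPM at 6 h and 21.9, 19.7 and 20.1 TPM at 24 h. The Sox2 inputs held 16.1 and 19.1 TPM, then 24.2 and 22.9 TPM, then 21.5, 25.4 and 27.1 TPM. Within each strain every noise library was above the controls. The difference was 0.37 ± 0.08 at 6 h (adjusted p = 0.0112) and 0.51 ± 0.08 at 24 h (adjusted p = 0.00111). In the supporting cell IP both Ephb4 controls, the lower at 10.2 TPM, lay below all 5 noise libraries (23.8 to 34.0 TPM), by 1.24 ± 0.25 at 6 h and 1.19 ± 0.22 at 24 h, which did not pass the test (adjusted p = 0.0952 and 0.165). The controls of the outer hair cell IP alone spanned 12.6 to 27.2 TPM.

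Plxnb2, a receptor for class 4 semaphorins such as Sema4c, rose in the inputs by 0.35 ± 0.07 at 6 h (adjusted p = 0.0083) and 0.45 ± 0.07 at 24 h (adjusted p = 0.00123). The Prestin inputs went from 42.4 to 48.3 TPM without noise to 57.4 to 65.1 TPM at 6 h, and the Sox2 inputs from 51.8 and 57.9 TPM to 64.0 and 63.2 TPM. At 24 h the supporting cell IP held 165 to 237 TPM against 109.7 and 113 TPM in control, a difference of 0.83 ± 0.18 that did not pass the test (adjusted p = 0.208). Nrp1 reached 2.99 to 3.02 TPM in the Prestin inputs at 24 h from 1.94 to 2.40 TPM, and 3.87 to 4.49 TPM in the Sox2 inputs from 3.02 and 3.47 TPM. Its difference was 0.34 ± 0.08 (adjusted p = 0.0209), a call lost in 6 of 23 alternatives, among them without Prestin control 1 or 3 or without Sox2 24 h replicate 3. Macrophage markers (10 genes, all above 0) summed to 152 to 173 TPM in Prestin control inputs. They summed to 137 to 179 TPM at 6 h and 388 to 415 TPM at 24 h. For Sox2 the sums were 191 to 205 TPM, then 126 to 153 TPM at 6 h and 324 to 485 TPM at 24 h. Their part in the rises of Plxnb2, Ephb4, Efna1 and Nrp1 was not tested.

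Plxnd1 moved down and back. The Prestin inputs held 20.4, 24.5 and 18.2 TPM without noise, 12.5 to 15.6 TPM at 6 h and 19.7, 23.8 and 23.2 TPM at 24 h. The Sox2 inputs held 24.1 and 31.4 TPM, then 19.9 and 13.6 TPM, then 31.4, 27.0 and 32.4 TPM. In both strains the 6 h libraries were the lowest. The difference was -0.63 ± 0.12 at 6 h (adjusted p = 0.00447) and 0.74 ± 0.11 from 6 h to 24 h (adjusted p = 0.000661). Summed endothelial markers (12 genes, all above 0) moved the same way in the Prestin inputs, from 297 to 348 TPM to 224 to 274 TPM at 6 h and 265 to 329 TPM at 24 h. In the Sox2 inputs they went from 320.0 and 325 TPM to 243 and 297 TPM and then to 324 to 382 TPM. Their part in the values of Plxnd1 was not tested. Sema3f, a secreted ligand of Nrp2, was 0.24 ± 0.07 higher at 24 h than at 6 h (adjusted p = 0.0414), a call that 18 of 23 alternatives lost.

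After noise, 1 of 44 tested members of the outer hair cell IP was called higher at 6 h, Epha2, against 0.856% of all 16703 genes, and 0 were called lower against 4.77%. At an unadjusted p under 0.05 the counts were 4 members higher and 4 lower, against 830 higher and 3546 lower of the 16703 genes. At 24 h 0 were higher against 1.1% and 2 were lower, Plxnb3 and Sema6c, against 5.14%. Between 6 h and 24 h 0 members were called, against 0.102% of all genes in either direction. At an unadjusted p under 0.05 there were 3 members, against 1328 of the 16703 genes.

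Plxnb3, the third plexin of the B class and a receptor for Sema5a, fell in the outer hair cell IP. It is located at chrX:73757090-73772514. Its values were 12.9, 9.59 and 16.8 TPM without noise, 3.15, 5.66 and 7.59 TPM at 6 h and 1.96, 1.49 and 1.56 TPM at 24 h. The 3 conditions did not overlap, and the 24 h values were close to those of the input, which lay between 0.686 and 2.87 TPM in all 9 Prestin inputs. The difference at 24 h was -2.37 ± 0.30 on the log2(TPM + 1) scale (adjusted p = 0.0136), from 13.1 ± 3.62 to 1.67 ± 0.254 TPM (SD, n = 3 each), a ratio of 0.128. At 6 h it was -1.16 ± 0.30 (adjusted p = 0.065). Without 24 h replicate 1 or 2 the 24 h call was lost, with an adjusted p of at most 0.0582, and the estimate ranged from -2.87 to -2.19 over the alternatives.

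The fall of Plxnb3 at 24 h exceeded the change in its own input by -2.13 ± 0.39 (adjusted p = 0.025), 1 of 44 tested members against 1.04% of all 17363 genes. That call was lost in 10 of 22 alternatives, among them a pseudocount of 0.1, median-of-ratios scaling, pairing of each IP with its own input (adjusted p = 0.103) and the omission of any 1 of 7 libraries. These were IP 24 h replicate 2, IP control 1, input controls 1 and 3 and the 3 inputs at 24 h. At 6 h the excess over input was -1.52 ± 0.39 (adjusted p = 0.0546), and 0 members were called against 2.42% of all genes. An unadjusted p under 0.05 was found for 3 members, against 3406 of the 17363 genes. For comparison, Plxnb3 in the supporting cell IP was 6.75 and 7.81 TPM without noise, 1.15 and 5.26 TPM at 6 h and 5.86, 7.26 and 10.7 TPM at 24 h, so that its 24 h values overlapped the controls. The outer hair cell response minus the supporting cell response was -2.45 ± 0.58 at 24 h, which did not pass the test (adjusted p = 0.0971).

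Cell type markers were summed in the same libraries of the outer hair cell IP. Outer hair cell markers were 824 to 2225 TPM without noise, 515 to 835 TPM at 6 h and 786 to 900 TPM at 24 h, with all 10 genes above 0. Summed neuron markers were 1413 to 2297 TPM, 1139 to 1481 TPM and 856 to 1240 TPM, without overlap of control and 24 h. Schwann cell and satellite glia sums after noise, 1599 to 2139 TPM, lay within the control range of 1428 to 2446 TPM. Endothelial sums were 486 to 528 TPM, then 338 to 423 TPM without overlap, then 376 to 514 TPM. Macrophage sums were 89.0 to 137 TPM, 88.9 to 155 TPM and, without overlap, 227 to 349 TPM. Supporting cell sums were 2358 to 2871 TPM, 2214 to 2967 TPM and, again without overlap, 3624 to 4087 TPM. The part of these cell types in the fall of Plxnb3 was not tested.

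Sema6c was 92.0, 77.9 and 82.3 TPM in the outer hair cell IP without noise, 53.3, 66.9 and 54.8 TPM at 6 h and 56.2, 57.5 and 48.9 TPM at 24 h. Both noise groups lay below the controls. The difference was -0.62 ± 0.14 at 24 h (adjusted p = 0.0439) and -0.52 ± 0.14 at 6 h (adjusted p = 0.0685), where the median of all genes was -0.15 and -0.17. The 24 h call was lost in 10 of 13 alternatives, median-of-ratios scaling among them. Plxnb1, a receptor of Sema4d, had a similar pattern without a call. It was 97.9, 68.4 and 67.4 TPM without noise, 43.1, 34.8 and 58.1 TPM at 6 h and 43.5, 43.3 and 43.9 TPM at 24 h, with differences of -0.78 ± 0.22 and -0.80 ± 0.22 (adjusted p = 0.073 and 0.0669).

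**Figure D4:**
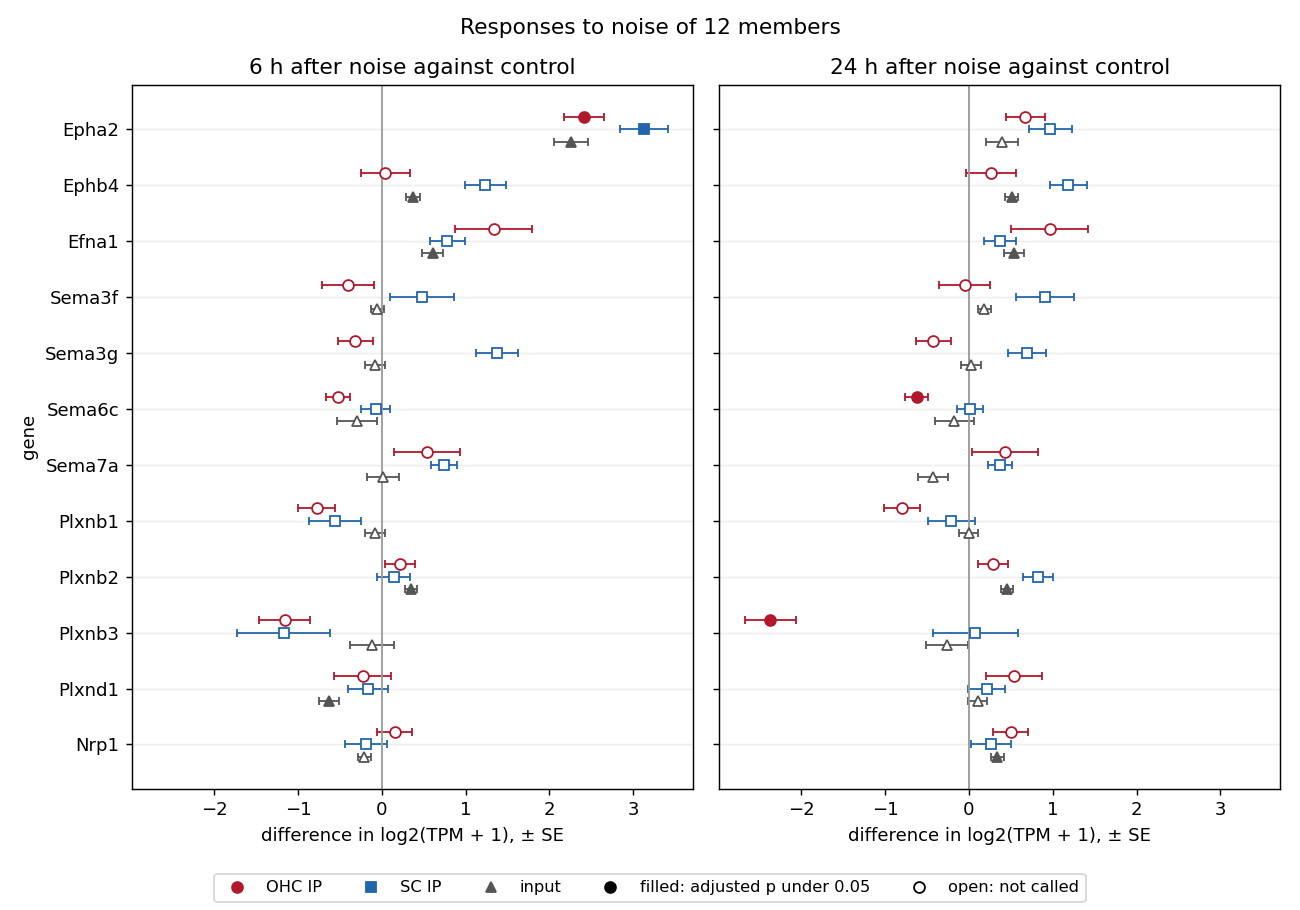
Differences from control at 6 h (left) and 24 h (right) for 12 members in the outer hair cell IP (circles), the supporting cell IP (squares) and the inputs of both strains (triangles), on the log2(TPM + 1) scale with SE; filled symbols passed an adjusted p under 0.05. Epha2 at 6 h is the gene filled in all 3, and Plxnb3 at 24 h has the lowest value, -2.37, in the outer hair cell IP.

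For the supporting cell IP, Epha2 at 6 h was the 1 of 46 tested members called higher, against 0.216% of all 17577 genes, and 0 were lower against 0.478%. At 24 h 0 members were called in either direction against 0.188% of all genes. At an unadjusted p under 0.05 there were 8 members, against 2028 of the 17577 genes. From 6 h to 24 h 1 member was called, Epha2, against 0.506%. Relative to input, 0 members were called at 6 h (0.269% of all 18560 genes) and 0 at 24 h (0.0485%). At an unadjusted p under 0.05 there were 4 and 1 members, against 2030 and 1025 of all genes. The groups of 2 libraries limit what this comparison can call.

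Sema3g is a secreted semaphorin known from endothelium. Its supporting cell IP values were 8.92 and 8.47 TPM without noise. They were 21.8 and 26.7 TPM at 6 h and 18.4, 12.6 and 13.6 TPM at 24 h. The Sema3g controls did not overlap either noise group. Of 46 tested members, 25 at 6 h and 21 at 24 h had such separation without a call. The share over all genes was not counted, and groups this small can separate without a difference. Its outer hair cell IP values were 29.4, 28.3 and 24.8 TPM, then 24.5, 15.5 and 27.3 TPM, then 18.3, 20.2 and 22.2 TPM. The response at 6 h in the outer hair cell IP minus that in the supporting cell IP was -1.69 ± 0.32 (adjusted p = 0.0455), the 1 of 47 tested members called against 0.516% of all 18997 genes. Within the supporting cell IP the rise was 1.37 ± 0.25 (adjusted p = 0.0806). The difference between drivers lost its call in 14 of 20 alternatives, with an adjusted p of up to 0.112. Endothelial sums in the supporting cell IP were 244 to 461 TPM, 304 to 353 TPM and 339 to 412 TPM. In the outer hair cell IP, as given above, they were lower at 6 h than in control, and their part in the values of Sema3g was not tested. At 24 h 0 members were called as differing between the drivers, against 0.168% of all genes. An unadjusted p under 0.05 was found for 10 members, against 3165 of the 18997 genes.

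Several members had large but irregular changes in the supporting cell IP that did not pass the test. Efnb3 was 144 and 124 TPM without noise and 1.05 and 24.2 TPM at 6 h (-4.23 ± 1.43, adjusted p = 0.211). At 24 h it was 10.1, 52.8 and 4.67 TPM. Its Sox2 inputs moved the same way, from 23.2 and 20.3 TPM to 3.31 and 0.189 TPM at 6 h. They held 4.93, 11.7 and 2.47 TPM at 24 h. The Prestin control inputs held 3.93 to 7.06 TPM. Efna3 in the supporting cell IP was 27.9 and 8.39 TPM without noise and 0.0284 and 2.20 TPM at 6 h (-3.18 ± 0.75, adjusted p = 0.118). At 24 h it was 8.27, 6.82 and 4.08 TPM. In both genes the controls of this IP were above all its noise libraries, yet replicates of 1 group differed several-fold. Control replicate 1 of the outer hair cell IP held 0.0832 TPM of Efna3 against 5.94 and 4.99 TPM in the other controls. That control library was also low for Efna1, Plxnd1, Sema7a and Sema6d, and held the highest outer hair cell marker sum, 2225 TPM.

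The wider pathway was read from 3 lists of genes that act with these receptors. At 6 h in the inputs, 5 of 24 tested plexin effectors and co-receptors rose and 0 fell, as did 1 of 19 Eph effectors, adaptors and shedding enzymes and 1 of 9 other guidance genes. Together 7 of 52 were called higher and 0 lower, where 3.83% and 4.71% of all genes were. Rnd3, a small GTPase that binds plexins, rose by 0.67 ± 0.11 (adjusted p = 0.0015). Prestin inputs averaged 4.90 ± 0.321 TPM of it in control and 9.29 ± 1.36 TPM at 6 h (SD, n = 3 each). Mras rose by 0.39 ± 0.08 and Rap1b, a small GTPase of the Rap family that plexins turn off, by 0.36 ± 0.08. Arhgef12, an exchange factor bound by B-class plexins, rose by 0.37 ± 0.09. Adam10, a protease that sheds ephrins, rose by 0.28 ± 0.08 and the netrin receptor Unc5b by 0.51 ± 0.12. At 24 h Gipc1, an adaptor of plexins and neuropilins, and the GTPase Rras rose by 0.37 ± 0.06 and 0.48 ± 0.11, 2 of 52 genes tested over the 3 lists, and 0 fell. That share is near the 3.78% of all genes called higher.

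The same lists held few calls within the IPs. In the outer hair cell IP the phosphatase Ptpn13 fell by 1.14 ± 0.23 at 6 h (adjusted p = 0.0358) and the endothelial receptor Robo4 fell by 0.78 ± 0.18 (adjusted p = 0.049). Mical3, a member of the family of oxidases that act below plexins, fell by 0.91 ± 0.22 at 24 h (adjusted p = 0.049). With median-of-ratios scaling 0 of the 62 genes were called lower at either time. The endothelial sums of these libraries were lower at 6 h too, and their part in the fall of Robo4 was not tested. Of 67 tested genes of the lists, limma called 0 in the supporting cell IP at 6 h or at 24 h. Against input, 60 of 63 genes of the lists were higher in the outer hair cell IP and 62 of 67 in the supporting cell IP, where 68.5% and 55.2% of all genes were. With median-of-ratios scaling the lists had 26 higher and 16 lower under the Prestin driver and 25 higher and 9 lower under the Sox2 driver. No share of all genes is given for that scaling. Between drivers, Rnd1 (-1.53 ± 0.25), Nrcam (-0.92 ± 0.15) and Rnd2 (-0.83 ± 0.12) differed toward supporting cells and Vav2 (0.56 ± 0.12), an exchange factor recruited by Eph receptors, toward outer hair cells.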

How the data were processed

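RNA was sequenced in 32 libraries. The values the authors deposited are TPM per gene; TopHat and the GRCm38 build are named per the submitters' processing notes, while neither the counter nor the annotation, versions or strand setting was found in these sources. TPM hold no read depth, so no counting interval can be given. Libraries were stated to be biological triplicates per the labels' protocols. Tests used limma 3.58.1 on log2(TPM + 1) (R 4.3.3; trend, Benjamini-Hochberg over all genes tested, threshold 0.05). Genes needed at least 1 TPM in at least 3 libraries (Prestin), 2 (Sox2 or both strains) or 5 (inputs). Each fit held all libraries of the sample types compared. Tables and plots used Python 3.11.15, pandas 2.3.3, numpy 2.4.6 and matplotlib 3.10.9. Promoters came from RefSeq, positions from GENCODE M21.

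The members and all lists were chosen with earlier results of these data known. Values in every library are given for Epha2, Plxnb3 and, per comparison, for some of the up to 8 called members with the smallest p and at least 1 TPM; the 2 highest members per family are given by level. Pathway genes are the up to 4 with the smallest p per comparison; Arhgef12, Adam10, Plxnb1 and the members named as not passing a test were chosen after their values were seen. IP and input of 1 homogenate are paired by design. Their deviations correlated weakly (r of 0.0209 to 0.273), above any other input of the group in all 16. In the Sox2 groups of 2 libraries both replicates give the same r (0.0481 at 6 h, 0.0568 in control). These are therefore not separate checks.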

Additional observations from a re-analysis of the deposited data

Results flagged for a closer look

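The enrichment of 13 members differed between drivers by a test of the difference itself (outer hair cell minus supporting cell, log2 scale). It was lower for Sema3b (-2.20), Ephb6 (-1.01), Plxnb2 (-0.98), Sema5a (-0.75) and Efnb1 (-0.67). Sema5a entered this test only through its Sox2 libraries. It was higher for Sema7a (0.76), Plxnd1 (0.76), Sema6d (0.70), Plxna1 (0.66), Plxna2 (0.60), Sema3g (0.47), Nrp2 (0.44) and Sema4d (0.44). Median-of-ratios scaling kept 9 of the 13 calls.

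At 24 h the fall of Plxnb3 on Prestin-driver ribosomes exceeded that of its input by -2.13, a call lost in 10 of 22 alternatives. The response of Sema3g at 6 h differed between the IPs by -1.69, a call lost in 14 of 20 alternatives. No group held 4 or more libraries, so single libraries were not tested as outliers.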

How the results depend on the processing

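Each result was recomputed with a pseudocount of 0.1, without the filter, with median-of-ratios scaling, without each library, with a block and within subsets. With median-of-ratios scaling 6 called members of the outer hair cell enrichment and 4 of the supporting cell enrichment changed sign. For the members selected by smallest p, none changed sign, and 954 values kept their call and 96 lost it. Shares of all genes called under these settings are not given here. The counts of members called stayed within 1.5 times except as follows. Median-of-ratios scaling gave 26 for the supporting cell enrichment, 1 for the outer hair cell IP at 24 h, 0 for the outer hair cell excess over input at 24 h and 0 for the difference of the IP responses at 6 h. Control libraries alone gave 26 for the supporting cell enrichment and 1 for the difference in enrichment. Sox2 inputs alone gave 1 at 6 h, 0 at 24 h and 2 between the times. A pseudocount of 0.1 gave 0 for the excess over input at 24 h, and dropping the filter gave 0 for the supporting cell IP from 6 h to 24 h. Leaving out the 4 Sox2 libraries at 6 h, chosen after seeing the data, moved no count beyond that factor.

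Correlations of same-numbered libraries of different conditions were weak and of either sign (r of -0.0834 to 0.067), so a shared origin was not shown by the number. With the number within strain as a block, 2 members were called for inputs at 24 h, 1 for the outer hair cell IP at 24 h, 0 for the supporting cell IP at 6 h, 0 for it from 6 h to 24 h and 0 for the difference of IP responses at 6 h. With homogenates paired, 0 were called for the outer hair cell excess over input at 24 h, and no other count moved beyond 1.5 times.

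Leaving out 1 library gave 2 to 5 members for inputs at 24 h (2 without Prestin control input 3), 0 to 2 for the outer hair cell IP at 24 h, 0 to 1 for the supporting cell IP at 6 h, 0 to 0 for it from 6 h to 24 h, 0 to 2 for the outer hair cell excess over input at 6 h and 0 to 1 at 24 h, 0 to 1 for the supporting cell excess at 6 h and 0 to 1 for the difference of IP responses at 6 h. Depth is unknown, and groups of 2 or 3 libraries limit what can be called.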
